A study of Danio rerio with 6 samples.

Results

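Genes of cell adhesion and of the extracellular matrix were examined in whole zebrafish larvae of the wild-type AB strain at 120 h post fertilization (hpf). 3 pools of larvae had received 5 Gy from a Co-60 source at 26 hpf, and 3 control pools (0 Gy) had been mock irradiated at the same age. Each pool held 50 larvae, pools of a group came from separate clutches, and each was hybridized to 1 one-colour NimbleGen expression array. The members were the array targets with a RefSeq mRNA identifier whose current zebrafish symbol begins with cdh and a digit, pcdh, cldn, itg, lama, lamb, lamc, col and a digit, fn1, thbs, tjp, ctnn, mmp, timp, tnc, fbn or matn. This gave 61 of 37157 targets, each of a different gene, among 2663 targets with a current symbol. They were 28 clustered protocadherins, 3 classical cadherins, 1 catenin, 12 claudins (the claudin-domain gene cldnd1a among them), 10 integrin subunits, 2 laminin chains, 2 collagens, 1 matrilin and 2 matrix metalloproteinases. Coverage of the families was uneven. The protocadherins stood for 28 of 63 genes with that prefix in the RefSeq gene table, the claudins for 12 of 48 and the collagens for only 2 of 60, and no member was a laminin gamma chain, fibronectin, thrombospondin, tight junction protein (tjp), tenascin C, fibrillin or TIMP.

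Cells hold to each other through cadherins, which bind the same or a like cadherin on the next cell and are tied to actin inside the cell by catenins, and epithelial cells are sealed to each other by claudins. Cells hold to the matrix through integrins, pairs of an alpha and a beta subunit that bind laminins, fibronectin and other matrix proteins, while metalloproteinases cut matrix and cell surface proteins. Clustered protocadherins are cadherin-like proteins of neurons. Their genes lie in rows of variable exons that are each joined to shared constant exons, and in mammals the combination that a neuron expresses serves its branches to recognise and avoid one another. Zebrafish carry a pair of such clusters, pcdh1 and pcdh2, with alpha and gamma rows.

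The clustered protocadherins were the family in which targets fell at 5 Gy, and a single metalloproteinase rose. A target passed where its unadjusted p in limma was under 0.05 and its 5 Gy and control levels differed at least 1.5-fold, the thresholds of the study's methods. On this rule 4 of 61 members fell, against 2.89% of all targets, and 1 rose, against 1.15% of all targets. The 4 that fell were pcdh1g2, pcdh1g3, pcdh1gb9 and pcdh2aa15, and the 1 that rose was mmp30. The other 56 members did not pass. The median log2 ratio was -0.09 over the 61 members and -0.03 over all targets, and 34 of the 61 ratios lay below 0, where 53.4% of all targets did. In a fit that took replicate number as a block, 4 members again fell, against 5.19% of all targets, and 2 rose, against 3.61%. In the methods' t-test 3 members fell (pcdh2aa15, pcdh2ab7 and pcdh2g3), against 1% of all targets, and none rose, against 0.53%. Within the members the direction differed by family. The ratio was below 0 for 23 of 28 protocadherins (median -0.39) and above 0 for 22 of the 33 other members (median 0.20). Standard errors of the ratios ran from 0.258 to 0.801. No member reached an adjusted p of 0.05 by limma (smallest 0.905). Since whole larvae were pooled, fewer cells of a type and less RNA per cell cannot be told apart.

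**Figure D1:**
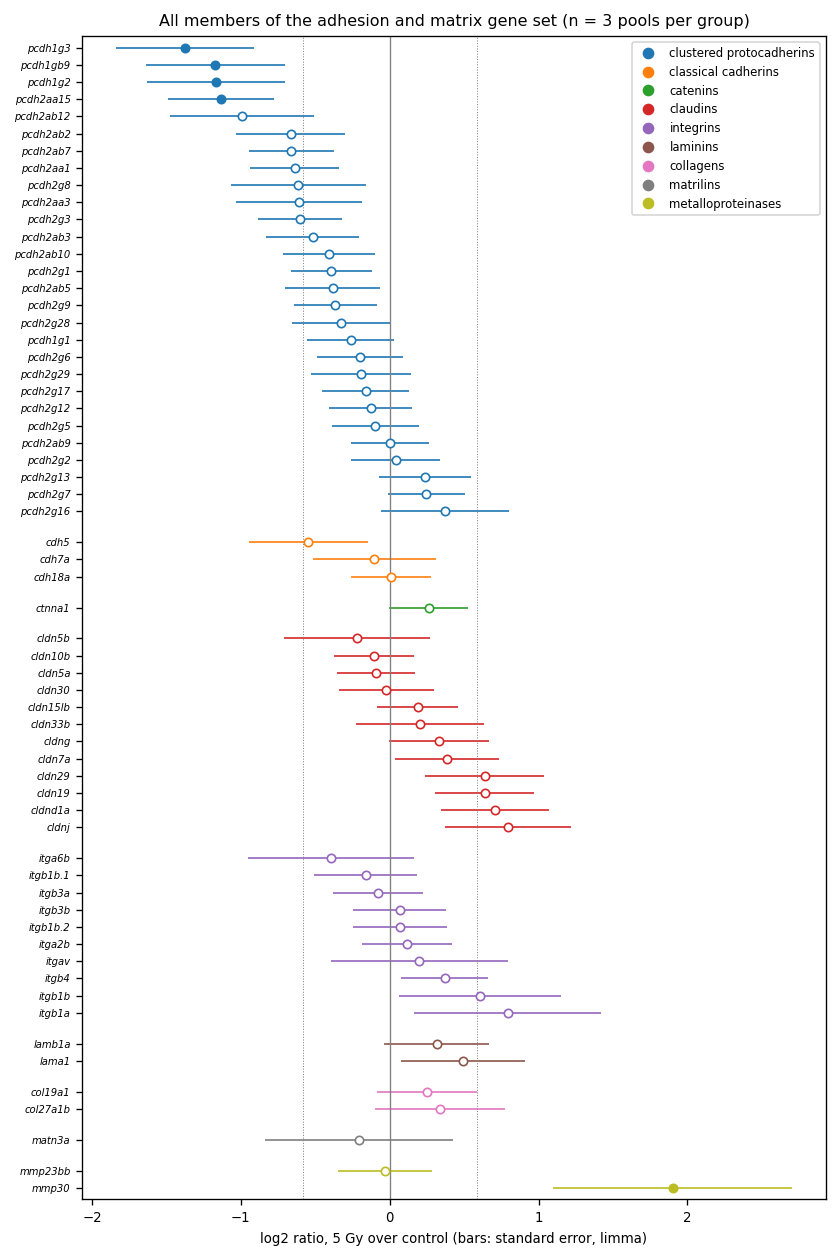
Log2 ratio of 5 Gy to control (x axis, limma, bars are standard errors) for each of the 61 members, grouped by family, with filled points for the 5 members that passed the thresholds and dotted lines at a 1.5-fold difference on either side of 0. The 4 filled protocadherins lie between -1.37 and -1.14, mmp30 lies alone at 1.90, and no claudin, integrin or laminin is filled.

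The arrays did not group by dose, and several values of the members turn on single pools. Across all targets the levels in control replicates 1 and 2 correlated at 0.977 with each other and at 0.893 to 0.931 with the remaining arrays. Control replicate 3 correlated at 0.987 with 5 Gy replicate 3, at 0.957 with 5 Gy replicate 1, and at 0.897 and 0.905 with the other controls (replicates 1 and 2). Without it 8 members fell, against 11.4% of all targets, and 5 rose, against 7.81%. The labels do not settle whether control replicate 3 and 5 Gy replicate 3 share a clutch or whether 1 of them carries the wrong label, on which the meaning of every control mean and ratio depends, and this was not tested. 5 Gy replicate 2 correlated at 0.893 to 0.920 with the other arrays, and without it 3 members fell and none rose, against 1.69% and 0.719% of all targets. It held the highest mmp30 value and the lowest value of 9 protocadherins. Without control replicate 1 no member passed, where 0.549% of all targets fell and 0.28% rose, and without control replicate 2 only pcdh2aa15 passed, where 0.533% fell and 0.301% rose. Results are therefore given pool by pool.

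3 of the 4 targets of the pcdh1 gamma row fell, each by more than 1 on the log2 scale, and the fourth, pcdh1g1, did not pass the test. pcdh1g3 (NM_001023577) had log2 intensities of 8.51, 8.29 and 6.74 in control replicates 1, 2 and 3 and of 6.49, 6.56 and 6.38 at 5 Gy. Control replicates 1 and 2 were thus far above every irradiated pool, whereas control replicate 3 lay just above them. The ratio was -1.37 (standard error 0.463, adjusted p = 0.905 by limma), a 2.59-fold lower level, from 7.85 ± 0.964 to 6.48 ± 0.093 (SD, n = 3 pools each). Its groups did not overlap, which held for 8 lower members, all protocadherins, against 4.7% of all targets. pcdh1g2 (NM_001023578) read 8.88, 9.01 and 7.29 in the controls and 7.19, 7.09 and 7.40 at 5 Gy, a ratio of -1.16 (standard error 0.464, adjusted p = 0.905 by limma). pcdh1gb9 (NM_001020778) read 8.59, 8.18 and 6.76 in the controls and 6.50, 6.61 and 6.91 at 5 Gy, a ratio of -1.17 (standard error 0.468, adjusted p = 0.905 by limma). In both genes control replicate 3 fell within the range of the irradiated pools, so the groups overlapped. pcdh1g1 (NM_001020804) had controls of 6.30, 6.03 and 6.14 and irradiated pools of 5.50, 5.94 and 6.24, which overlapped, at a ratio of -0.26 (standard error 0.295). pcdh1g1 was among the dimmest targets of the array, so the size of its ratio is less certain.

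The 3 targets moved together across pools, and nearly all of their probes had a lower mean at 5 Gy. The correlation of their log2 values over the 6 pools was 0.974 to 0.978 between any pair of the 3, and 0.400 to 0.535 between each of them and pcdh1g1. The 3 were picked by their difference between the groups, and that difference enters these correlations. All 11 probes of pcdh1g2 and all 11 of pcdh1g3 had a lower mean at 5 Gy, as did 11 of 12 probes of pcdh1gb9. In pcdh1g1 5 of 12 probes were lower. That target was dim, with means of 6.16 in the controls and 5.89 at 5 Gy. Its weaker correlations and mixed probes therefore cannot show whether this gene behaved differently from the other 3. In the annotation the 4 genes lie in a run of 7 neighbouring genes that are all protocadherins. Genes of a row share constant exons and the probe sequences were not used here, so how far the targets report the same transcripts was not tested. Against the mean of control replicates 1 and 2, control replicate 3 differed by -1.66 for pcdh1g3, -1.65 for pcdh1g2 and -1.62 for pcdh1gb9, and the mean of the irradiated pools by -1.93, -1.72 and -1.71. With control replicate 3 left out, the adjusted p-values from limma were 0.0364, 0.0436 and 0.0493. In that fit 459 of 37157 targets had an adjusted p under 0.05 by limma, where none had in the fit of all pools. The pool left out is the control that lay near the irradiated pools in these 3 targets. Without control replicate 1 the ratios were -1.04, -0.92 and -0.80, and none passed. Without control replicate 2 none passed either, with -1.15 for pcdh1g3 and -0.86 for pcdh1g2. The calls of pcdh1g2 and pcdh1gb9 were also lost without any single 5 Gy pool. None of the 3 passed in the methods' t-test.

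**Figure D2:**
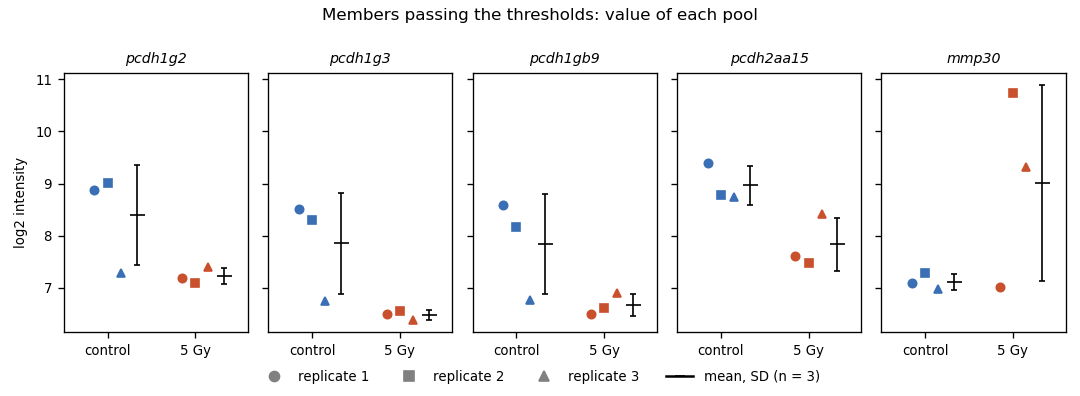
Log2 intensity (y axis) of each pool for the 5 members that passed the thresholds, with control pools in blue, 5 Gy pools in red, a marker shape for each replicate number, and the mean and SD of 3 pools in black. In pcdh1g2, pcdh1g3 and pcdh1gb9 control replicates 1 and 2 lie above 8 and control replicate 3 lies with the irradiated pools, in pcdh2aa15 all control pools lie above all 5 Gy pools, and in mmp30 5 Gy replicates 2 and 3 lie above the rest.

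In the alpha rows of the pcdh2 cluster 1 of 10 targets fell, against 2.89% of all targets. The ratio was below 0 for 9 of the 10, where 53.4% of all targets were. pcdh2aa15 (NM_001009586) had log2 intensities of 9.40, 8.77 and 8.73 in the controls and 7.62, 7.47 and 8.41 at 5 Gy. Every control pool lay above every irradiated pool, and control replicate 3 was level with control replicate 2. The ratio was -1.14 (standard error 0.355, adjusted p = 0.905 by limma), a 2.20-fold lower level, and 4 of its 5 probes were lower. The call was lost without control replicate 1 (-0.92) and held when any other single pool was left out. It passed in the methods' t-test and did not in a paired form of that test, which the study's methods do not describe. The study chose pcdh2aa15, pcdh2ab7 and pcdh2g3 from these very libraries, and their direction is therefore no independent evidence.

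4 further alpha targets had lower values in all irradiated pools than in any control, without passing the test. Over all targets 4.7% were lower without overlap. All 4 were among the dimmest targets of the array, so the size of their ratios is less certain. pcdh2ab7 had controls of 7.11, 6.68 and 6.51 and irradiated pools of 5.92, 6.14 and 6.26. These groups did not overlap, and its ratio of -0.66 (standard error 0.288) just missed the p threshold. pcdh2aa1 read 6.27, 6.44 and 5.69 in the controls against 5.35, 5.57 and 5.58, also without overlap (-0.64, standard error 0.300). In pcdh2ab12 the lowest control, 6.06, was only just above the highest irradiated pool, 6.04, and the ratio of -0.99 (standard error 0.487) came from control replicate 1 at 7.93. Without overlap, too, were the pools of pcdh2ab3, with controls of 7.44, 7.15 and 7.03 against 6.81, 6.23 and 7.02 (-0.52, standard error 0.311). The remaining alpha targets overlapped, with ratios of -0.67 for pcdh2ab2, -0.61 for pcdh2aa3, -0.41 for pcdh2ab10, -0.38 for pcdh2ab5 and 0.00 for pcdh2ab9.

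None of the 14 targets of the pcdh2 gamma row passed the test, and their ratios ran from -0.61 to 0.37 with a median of -0.18. The lower end was held by pcdh2g8, with controls of 8.32, 8.38 and 6.86 and irradiated pools of 7.01, 7.70 and 7.01, a ratio of -0.61 (standard error 0.456). Control replicates 1 and 2 were its highest pools, as in pcdh1g2, pcdh1g3 and pcdh1gb9. Over the 6 pools pcdh2g8 correlated with these 3 at 0.859 to 0.889. Unlike in those, its control replicate 3 lay below all irradiated pools. pcdh2g3 had controls of 7.09, 6.99 and 7.02, all above 6.31, 6.18 and 6.80 at 5 Gy (-0.60, standard error 0.283), and pcdh2g1 had controls of 7.17, 7.19 and 6.82 above 6.47, 6.81 and 6.73 (-0.39, standard error 0.272). By limma neither passed. pcdh2g7 was the 1 member, against 2.78% of all targets, whose irradiated pools (5.50, 5.66 and 5.33) all lay above its controls (5.29, 5.26 and 5.20), by 0.25 (standard error 0.258). The other 10 targets overlapped, from -0.37 for pcdh2g9 and -0.33 for pcdh2g28 to 0.23 for pcdh2g13 and 0.37 for pcdh2g16. Where groups do not overlap, the exact permutation p of 3 pools against 3 is 0.1 (two-sided), the smallest this design allows. Of the 28 protocadherins 21 had a mean value under 6.97, the limit below which the dimmest 25% of targets lie, so the size of their ratios is less certain. The 4 that fell had means above it, but pcdh1g3 and pcdh1gb9 only through control replicates 1 and 2, since their irradiated means (6.48 and 6.67) and control replicate 3 (6.74 and 6.76) lay under it.

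The protocadherin difference was larger in the pairs of pools numbered 1 and 2 than in the pair numbered 3. Pairs follow the replicate numbers, and only the pools numbered 3 were clearly matched by number in their levels. The median log2 ratio over the 28 targets was -0.67 in pair 1, -0.45 in pair 2 and -0.02 in pair 3. By row the medians in pairs 1, 2 and 3 were -1.86, -1.65 and 0.10 for pcdh1 gamma, -1.27, -0.87 and -0.32 for the aa targets of pcdh2, -0.72, -0.54 and 0.09 for its ab targets and -0.14, -0.29 and -0.09 for pcdh2 gamma. pcdh2aa15 was lower in all 3 pairs (ratios of -1.78, -1.31 and -0.32), and so was pcdh1g3 (-2.02, -1.73 and -0.37). Among all 6 pools the lowest value of a protocadherin was in 5 Gy replicate 1 for 10 targets and in 5 Gy replicate 2 for 9, while the highest was in control replicate 1, 2 or 3 for 10, 8 and 6 targets. With both pools numbered 3 left out 10 protocadherins fell and none rose, where 9.25% of all targets fell.

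**Figure D3:**
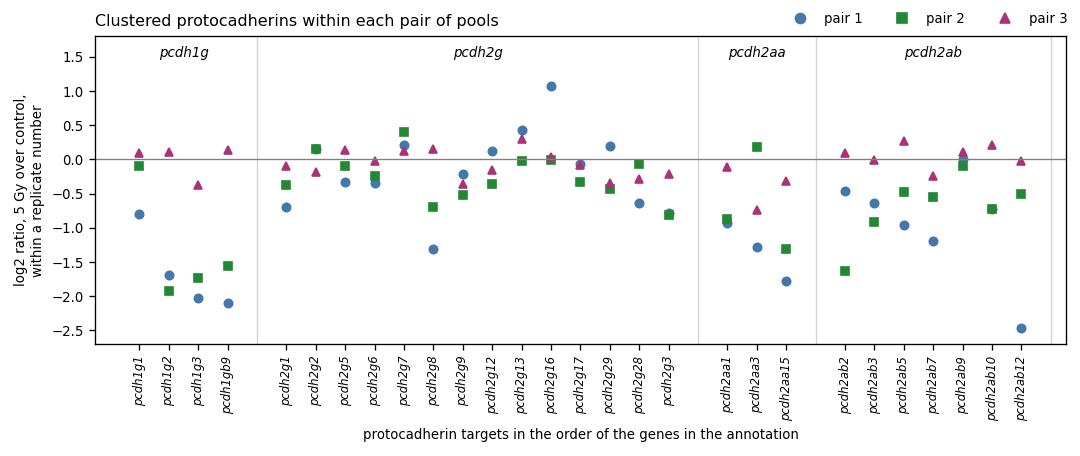
Log2 ratio of 5 Gy to control within each pair of pools with the same replicate number (y axis) for the 28 clustered protocadherin targets, row by row in the order of their genes in the annotation (x axis). The ratios of pair 3 lie between -0.74 and 0.29, while those of pairs 1 and 2 reach -2.46 and -1.92, with pcdh1g2, pcdh1g3 and pcdh1gb9 below -1.5 in both.

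Some neuronal markers fell as well. Of 8 measured targets of a list of 34 neuronal genes 3 fell, against 2.89% of all targets, and none rose, against 1.15%. All 8 ratios were below 0 (median -0.80), where 53.4% of all targets were. The 3 were slc17a6a, a vesicular glutamate transporter, at -1.21 (standard error 0.325), the glycine receptor subunit glra3 at -1.06 (standard error 0.409) and the glycine transporter slc6a5 at -0.88 (standard error 0.343). The study chose slc17a6a, like pcdh2aa15, from these libraries. In the methods' t-test 1 of the 8 fell (slc17a6a), against 1% of all targets, and in its paired form none of the 8 did. None was under the dim limit, and the log2 of their summed level was 14.53 to 14.86 in the controls and 13.35 to 14.46 at 5 Gy. The median deviation of the list was 0.45 in control replicate 3, against 0.60 and 0.44 in the other controls, but its members went both ways there. In glra3 control replicate 3 was at 8.27 beside 9.65 and 9.60 in the other controls, and in slc6a5 at 10.28 beside 11.13 and 11.34, the order seen in pcdh1g2, pcdh1g3 and pcdh1gb9. In slc17a6a it was at 9.68 beside 9.86 and 9.65, level with them. The part of neuronal RNA in the protocadherin values was not tested.

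The 3 classical cadherins and the catenin did not pass the test. cdh5 (NM_001003983), the cadherin of vascular endothelium, had log2 intensities of 9.25, 8.71 and 8.32 in the controls and 7.52, 8.69 and 8.43 at 5 Gy. Only 5 Gy replicate 1 was below the controls, and the groups overlapped, at a ratio of -0.55 (standard error 0.398). Other endothelial markers overlapped too, with -0.80 (standard error 0.412) for clec14a, -0.16 for kdr and 0.48 for egfl7, of which clec14a fell once replicate number entered as a block. The study lists another target, assigned to human KDR, as lower in these pools. That target has no RefSeq mRNA identifier and was not among these markers. cdh7a had a ratio of -0.10 (standard error 0.411) and cdh18a one of 0.01 (standard error 0.269), the latter on a target under the dim limit. ctnna1 (NM_131456), alpha-catenin, which ties the cadherin complex to actin, varied little between pools. Its controls averaged 11.12 and its irradiated pools read 11.56, 11.21 and 11.37, a ratio of 0.26 (standard error 0.267).

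No claudin passed the test by limma, and 8 of the 12 had ratios above 0 (median 0.27). cldnj was at 0.80 (standard error 0.423), cldnd1a at 0.71 (standard error 0.363), cldn19 at 0.64 (standard error 0.333) and cldn29 at 0.64 (standard error 0.398). cldn19 (NM_001017736), known in mammals from kidney tubules and Schwann cells, had controls of 10.67, 10.52 and 11.26 and irradiated pools of 11.14, 11.34 and 11.89. Its groups overlapped only through control replicate 3, and the irradiated pool was higher within each pair, by 0.47, 0.82 and 0.63. It was the 1 member that passed in the methods' paired t-test, against 0.433% of all targets that were higher in it, and it rose without control replicate 3 (0.86, standard error 0.333). cldnd1a read 8.11, 8.27 and 8.99 in the controls and 9.70, 8.92 and 8.88 at 5 Gy, so that control replicate 3 was again the control within the irradiated range. In cldn29 and cldnj 1 irradiated pool stood above the rest. In cldn29 5 Gy replicate 1 was at 10.78 and the other 2 irradiated pools at 9.36 and 9.68, beside controls of 9.07 to 9.48, and in cldnj 5 Gy replicate 2 was at 9.45 beside controls of 7.56 to 8.09. 5 Gy replicate 1 was the highest of the 6 pools for 8 of the 12 claudins. The median claudin ratio was 0.59 in pair 1, 0.10 in pair 2 and -0.01 in pair 3. The other claudins ran from -0.22 for cldn5b and -0.09 for cldn5a, both claudins of endothelial barriers, through -0.10 for cldn10b and -0.02 for cldn30, to 0.19 for cldn15lb, 0.20 for cldn33b, 0.33 for cldng and 0.39 for cldn7a. The 2 epidermal markers measured were at 0.17 for agr1 and -0.14 for krt97.

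None of the 10 integrin subunits passed the test without a block, and 2 genes of the beta 1 subunit, the common partner of most matrix-binding alpha subunits, had the largest ratios. itgb1a (NM_001034971) had log2 intensities of 8.06, 8.57 and 10.39 in the controls and of 9.30, 9.43 and 10.67 at 5 Gy. Control replicate 3 lay 2.07 above the mean of the other 2 controls and within the irradiated range. The ratio was 0.79 (standard error 0.630, adjusted p = 0.905 by limma), and 12 of 12 probes were higher. The irradiated pool was higher in each pair, by 1.24, 0.86 and 0.28, and itgb1a was the second member that rose when replicate number was a block (adjusted p = 0.567 by limma). Without control replicate 3 it rose by 1.48, where 7.81% of all targets rose. The pool left out is its highest control, so the ratio had to grow. itgb1b (NM_001034987) was alike, with controls of 9.44, 8.90 and 10.76 against 9.58, 10.34 and 10.99 (0.61, standard error 0.541), and rose by 1.14 without control replicate 3, its highest control too. The like-named genes itgb1b.1 and itgb1b.2 did not share this pattern, at -0.16 (standard error 0.344) and 0.07 (standard error 0.314). Near-identical copies could share probes, which was not tested.

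The other integrins showed the same spread of control replicate 3 in 2 genes and little movement elsewhere. itgav, the alpha V subunit, read 9.97, 9.82 and 11.86 in the controls and 10.54, 10.16 and 11.55 at 5 Gy (0.20, standard error 0.597). itga6b, an alpha 6 subunit that pairs with laminin-binding beta subunits, read 10.35, 10.52 and 9.22 in the controls and 9.14, 10.80 and 8.97 at 5 Gy (-0.40, standard error 0.557). In itgav the pools numbered 3 were the highest, while in itga6b they were low together with 5 Gy replicate 1. itgb4, the partner of alpha 6 in hemidesmosomes, was at 0.37 (standard error 0.292). The platelet subunits itga2b, itgb3a and itgb3b were at 0.12, -0.08 and 0.07.

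The laminin chains, which build the basement membrane that integrins bind, did not pass the test. lama1 (NM_001034986) had controls of 6.32, 6.81 and 7.86 and irradiated pools of 7.18, 7.61 and 7.68, a ratio of 0.49 (standard error 0.418). Control replicates 1 and 2 were below every irradiated pool. Without control replicate 3, the highest control, lama1 rose by 0.92, where 7.81% of all targets rose. lamb1a had controls of 10.01, 10.07 and 10.88 against 10.98, 10.22 and 10.71 (0.31, standard error 0.354).

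**Figure D4:**
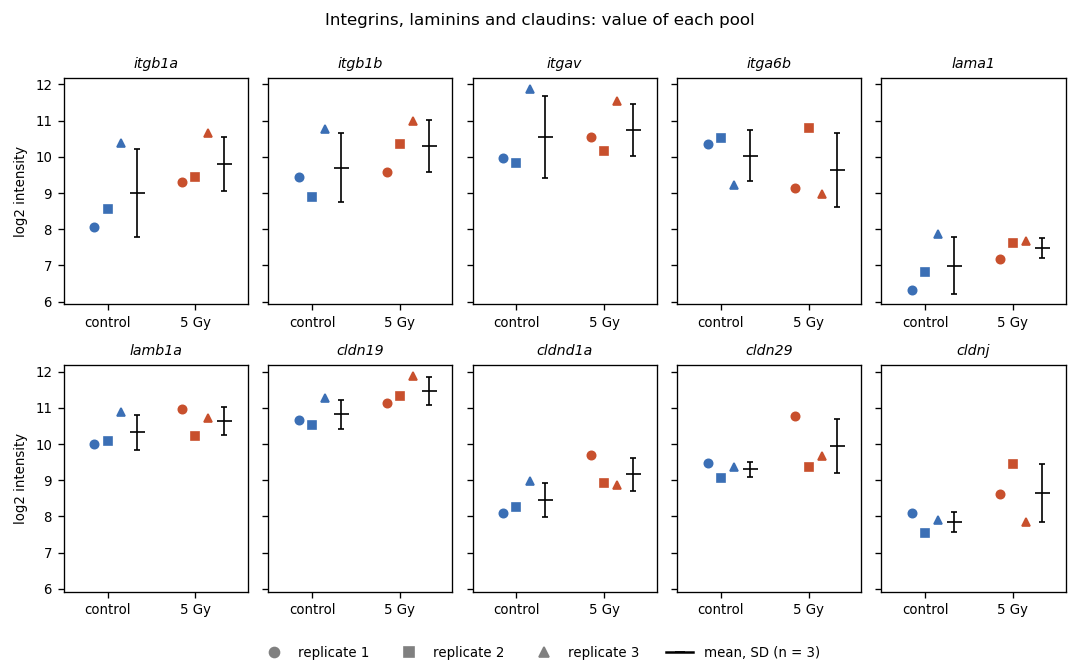
Log2 intensity (y axis) of each pool for 4 integrins, 2 laminin chains and 4 claudins, with control pools in blue, 5 Gy pools in red, a marker shape for each replicate number, and the mean and SD of 3 pools in black. In itgb1a, itgb1b, itgav and lama1 control replicate 3 (triangle) is the highest control, at 10.39, 10.76, 11.86 and 7.86, and lies in or above the irradiated range.

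Of the matrix proteins none passed the test. col19a1 was at 0.25 (standard error 0.336) and col27a1b, a fibrillar collagen of cartilage, at 0.34 (standard error 0.435), with irradiated values higher within each pair by 0.39, 0.30 and 0.32. col27a1b lay under the dim limit, so the size of its ratios is less certain. matn3a (NM_001004007), the cartilage matrix protein matrilin 3, was uneven between irradiated pools. Its controls read 12.20, 11.35 and 12.38, while 5 Gy replicate 1 was at 10.24 and 5 Gy replicates 2 and 3 at 12.58 and 12.50, which left a ratio of -0.20 (standard error 0.631). The cartilage and bone markers included none that passed by limma, with 4 of 5 ratios above 0 (median 0.40), and the bone matrix gene spp1 at -0.13. runx2b, a regulator of bone formation, rose only once replicate number was a block (0.76, adjusted p = 0.567 by limma). It, too, lay under the dim limit.

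mmp30 (NM_001040291), a zebrafish matrix metalloproteinase, rose at 5 Gy in 2 of 3 pools. Its log2 intensity was 7.09, 7.28 and 6.98 in the controls and 7.01, 10.74 and 9.31 in 5 Gy replicates 1, 2 and 3. The controls were close to each other (7.12 ± 0.152, SD, n = 3), the irradiated pools were not (9.02 ± 1.88, SD, n = 3), and the groups overlapped because 5 Gy replicate 1 was at control level. The ratio of 1.90 was the largest in size of the 61 members (standard error 0.801, adjusted p = 0.905 by limma), a 3.73-fold higher level. All 12 probes were higher, by 0.93 to 2.58. The call held without 5 Gy replicate 1 (2.91) and was lost without 5 Gy replicate 2 (1.04), without 5 Gy replicate 3 (1.75), or without control replicate 1, 2 or 3 (1.89, 1.98 and 1.83). mmp30 passed neither in the methods' t-test nor in its paired form. In contrast to itgb1a, itgb1b and itgav and to pcdh1g2, pcdh1g3 and pcdh1gb9, control replicate 3 was level with the other controls. The other metalloproteinase, mmp23bb, had a ratio of -0.03 (standard error 0.317). Among 5 leukocyte targets none passed and the median was -0.01.

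Further genes of adhesion and matrix, listed by role outside these families, gave 30 measured targets of 225 listed genes. Of these 30, 1 fell, against 2.89% of all targets, and 29 did not pass, with a median ratio of 0.17. The 1 was bcan (NM_001083813), brevican, a proteoglycan of the brain matrix. Its controls read 9.48, 9.27 and 8.84, all above 8.20, 7.88 and 8.63 at 5 Gy, a ratio of -0.96 (standard error 0.320, adjusted p = 0.905 by limma). The study chose it, too, from these pools, and its call was lost without control replicate 1 or 2 (-0.82 and -0.93). Under the replicate block 3 targets of this list rose, against 3.61% of all targets, each at an adjusted p = 0.567 by limma. They were elna (1.04) and elnb (1.02), which encode elastins of elastic fibres, and ptk2aa (0.96), a focal adhesion kinase that acts below integrins. elnb and the control mean of elna lay under the dim limit, so the size of these 2 ratios is less certain. elna had controls of 6.14, 6.50 and 8.19 against 7.87, 7.92 and 8.14, and ptk2aa had controls of 8.10, 8.24 and 10.96 against 9.69, 9.56 and 10.95. In both, as in itgb1a and lama1, the first 2 controls were below every irradiated pool and control replicate 3 was above or within the irradiated pools.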

How the data were processed

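Total RNA of 6 pools of whole larvae was measured on NimbleGen zebrafish arrays of 385000 probes. The deposited values are linear intensities of single probes, which the authors had extracted with NimbleScan and quantile normalized. RMA is named in the submitters' processing notes with no version, and whether background was subtracted is not given in the sources used here.

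Probe intensities were turned to log2 and combined per target by median polish (tolerance 0.01, at most 10 iterations). Groups were compared over all 37157 targets with limma 3.58.1 in R 4.3.3, with no covariate and Benjamini-Hochberg adjustment. "Rose", "fell" and "passed" refer to an unadjusted p below 0.05 together with a 1.5-fold difference. A current symbol was found for 2663 of 3055 targets that carry a RefSeq mRNA identifier. RefSeq's annotation of GRCz12tu served for names and gene order only. The number of arrays limits the precision.

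Members and gene lists were chosen with earlier results of these data known. Every member could be named, with full values for those that passed or whose groups did not overlap and for the smallest p of each other family. Values of further members were added after they were seen. Once group means were removed, same-numbered pools correlated at 0.150, 0.239 and 0.497, all above the limit of 0.1. On the same measure control replicate 1 correlated at 0.166 with irradiated replicate 2, above its 0.150 with irradiated replicate 1. Passing the limit therefore does not show that the pools numbered 1 were matched. Results of the replicate block stand beside those it changed, and they rest on pairing by replicate number. The methods' t-test, a paired form of it added here, other normalizations, other summaries of probes, array weights and leaving out pools were also run. The scripts were tested on simulated data.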

Additional observations from a re-analysis of the deposited data

How the results depend on the processing

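The count of 4 protocadherins that fell was the same under the replicate block, a repeated quantile normalization, centring on the median, an offset of 50 and omission of the dimmest 25% of targets, and it was 5 or 6 with other summaries of probes. Over all targets 2.5% to 5.19% fell in these settings. None of the 5 members that passed changed sign in any of 18 settings. The replicate block and both t-tests keep the ratio as it is, so no sign could change there. Of the 18 settings the call was lost in 9 for mmp30, 7 each for pcdh1g2 and pcdh1gb9, 4 for pcdh1g3 and 2 for pcdh2aa15. Members that rose numbered 2 with the replicate block and with the median of probes, and 0 with the offset and in the methods' t-test. The shares of all targets that rose were, in the same order, 3.61%, 1.37%, 0.923% and 0.53%. With array weights, where control replicate 3 had the smallest (0.340), 10 members rose, 9 fell (8 of them protocadherins), 6 further genes of adhesion and matrix rose, and the median over the members was 0.038. Over all targets 12.7% rose and 16.7% fell there, so 10 and 9 of 61 members are near that background. An adjusted p under 0.05 by limma was held by 6 members, and by 2839 of 37157 targets. Of the 6, cldn19 and itgb1a were higher and pcdh1g2, pcdh1g3, pcdh1gb9 and pcdh2g8 lower. In the paired t-test added here 0 members, 0 protocadherins and 0 further genes fell, against 0.484% of all targets. Under the replicate block 3 further genes rose, against 3.61% of all targets. With the dimmest targets left out, and so fewer members, the medians were 0.13 over the members and -1.14 over the protocadherins. This filter used the mean over all pools, which pcdh1g3 and pcdh1gb9 passed only through control replicates 1 and 2. The 4 protocadherins that fell were among the 7 it kept. Their unchanged count and the median of -1.14 are therefore no independent support. Leaving out 1 pool gave 0 to 5 members that rose, 0 to 8 that fell, all of them protocadherins, 0 to 5 further genes that rose, 0 to 1 that fell, and medians of further genes of 0.018 to 0.26. Over all targets 0.28% to 7.81% rose and 0.533% to 11.4% fell when 1 pool was left out. With both pools numbered 3 left out, an alternative chosen after seeing the data, 3 members rose, 10 protocadherins fell and 3 further genes rose, where 5.72% of all targets rose and 9.25% fell. The cause of these changes was not tested. With 3 arrays per group and 25 of 61 members under the dim limit, small ratios were not detectable.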

Other observations

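Markers of other tissues in the same pools gave the following counts of targets that passed. Over all targets 1.15% rose and 2.89% fell. Of 7 skeletal muscle targets 2 rose, pygma and smyd1b, and the median log2 ratio was 0.50. Of 18 lens targets 3 rose (crygm2b, crygm2d17 and crygm2d4) and the median was 0.17. The study chose pygma, smyd1b, crygm2d17 and crygm2d4 from these pools, and their direction is therefore no independent evidence. None passed of 5 cartilage and bone targets (median 0.40), 3 notochord targets (-0.06), 3 endothelium targets (-0.16), 2 epidermis targets (0.01), 2 intestine targets (0.48), 3 erythrocyte targets (0.03) or 5 leukocyte targets (-0.01), nor the single targets of glia (0.11), liver (-1.54) and kidney (-0.02). Under the replicate block 3.61% of all targets rose and 5.19% fell. There neither muscle gene passed, 4 lens targets rose (crygm2a being added) and 1 cartilage and bone target (runx2b) rose. The liver target and 1 endothelium target (clec14a) fell there.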
